A study of Zea mays with 24 samples.

Results

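Mutant ZmICE1a endosperm treated with JA (jasmonic acid) was set against wild type endosperm of the same experiment without JA, 3 libraries against 3 of the 24 in the series. The 6 libraries were chosen by their labels. In these 2 groups the title, the genotype field, the treatment field and the name of the count file agree, whereas 2 other groups of the JA experiment carry labels that contradict each other. Genotype and treatment change together here, so an effect of the ZmICE1a mutation and an effect of JA cannot be told apart in this comparison.

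Endosperm is the nutritive tissue of the maize (Zea mays) kernel, and during filling it is dominated by the synthesis of starch and of zeins, the storage proteins of maize. Jasmonates are lipid-derived hormones of wounding and defence. In the absence of hormone, JAZ repressors hold down transcription factors such as MYC2, and the hormone triggers degradation of the repressors. ICE1, after which ZmICE1a is named, is a bHLH transcription factor known in Arabidopsis for its part in the cold response. The title of the series places ZmICE1a between defence and storage.

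All libraries were made at 15 days after pollination from 5 to 10 pooled endosperms each, by MP3RNA-seq, which reads the 3' ends of transcripts. The groups used were mutant JA-treated, titled mutant JA-untreated, titled wild type JA-treated and wild type JA-untreated in the JA experiment, and mutant and wild type without hormone in a separate genotype experiment, with 3 libraries in each. The groups called "titled" are named after their titles alone. Their genotype fields state the other genotype, and their file names read as if both titles had been exchanged. The sources used here do not give the mutant allele, the genetic background, or the dose and duration of JA, nor do they state that replicates came from separate plants. The spread behind each p-value is that between libraries, and it may be technical. In pooled tissue, fewer cells of a type and less RNA per cell cannot be told apart.

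The mutant JA-treated libraries held 847205 to 857113 counts and the wild type JA-untreated ones 1660718 to 1917363, so that depth separated the groups as the labels do. The titled groups held 839322 to 1353622 counts, and the genotype experiment 3109928 to 4875478. Between 19750 and 19890 features had at least 1 count in mutant JA-treated libraries, against 22458 to 23142 in wild type JA-untreated ones. Nuclear gene models took 96.0% to 97.6% of the counts in mutant JA-treated libraries and 96.0% to 98.6% in wild type JA-untreated ones. The sources used here pair none of the 44146 nuclear identifiers with a name. The level of ZmICE1a, the identity of the zein, starch and jasmonate genes, and the markers of starchy endosperm, aleurone, transfer layer and embryo were therefore not analysed here by name. Nuclear genes are described by their counts, their abundance and a few identifiers, and genes of the organelle genomes by name.

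Under the scaling used, gene expression in mutant JA-treated endosperm differed from wild type JA-untreated endosperm in both directions to about the same extent. Of 10993 nuclear gene models tested, 571 were higher and 554 lower by the quasi-likelihood test of edgeR at an adjusted p under 0.05 (Benjamini-Hochberg). Over all 11265 features tested the share called was 10.2%, with 5.25% higher and 4.94% lower. The median log2 fold change was 0.84 among the nuclear genes that rose and −0.87 among those that fell. A log2 fold change of at least 1 in size was reached by 211 that rose and 234 that fell, against 2.01% and 2.09% of all features tested, and one of at least 2 by 25 that rose and 29 that fell. A further 33153 nuclear gene models were not tested because of low counts, of which 16863 had no count in any of the 6 libraries. With all 12 libraries of the JA experiment thinned to the depth of the shallowest, 447 features were higher and 451 lower. The scaling assumes that most features do not change, which favours such a balance. With library sizes that leave out the 50 most abundant features 463 were higher and 583 lower. Without the low-count filter the counts were 542 and 805.

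Abundant transcripts were called more often than rare ones, and among the most abundant the balance lay on the higher side. Of 63 nuclear genes with a mean of 1000 CPM (counts scaled to a common library total) or more over the 12 libraries of the JA experiment, 29 were called higher in mutant JA-treated endosperm and 11 lower, which is 46% and 17.5%. Of 245 genes at 300 to 1000 CPM, 56 were higher and 46 lower. Among 5054 genes at 10 to 30 CPM, 150 were higher and 163 lower, which is 2.97% and 3.23%. Among called genes alone the sizes ran the other way. Their median absolute log2 fold change was 1.21 at 10 to 30 CPM and 0.50 at 1000 CPM or more. The precision of a value rises with its count, so that at low counts a change must be larger to be called. The part of this in the shares called and in the sizes was not tested.

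**Figure D1:**
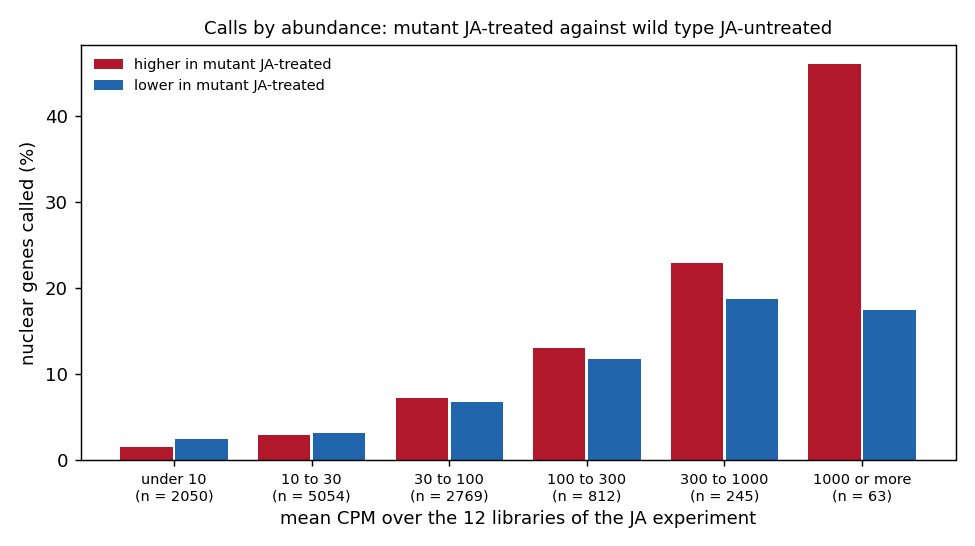
Share of nuclear genes called higher (red) or lower (blue) in mutant JA-treated against wild type JA-untreated endosperm, in percent of the genes tested in each class of mean CPM; the number of genes tested stands under each class. The share called higher rises with abundance, as does the share called lower up to the class of 300 to 1000 CPM (18.8%), and in the class of 1000 CPM or more 46% are higher and 17.5% lower.

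The transcripts that fill the libraries made up a larger part of the mutant JA-treated ones. The 50 features of highest mean CPM in the JA experiment, a set chosen after the data had been seen, comprised 48 nuclear gene models, 1 ENSRNA feature and 1 mitochondrial ribosomal RNA. They held 44.2%, 46.0% and 44.4% of the counts in the mutant JA-treated libraries, against 42.0%, 40.5% and 40.9% in the wild type JA-untreated ones. The groups did not overlap, and the means were 44.9% ± 0.966 and 41.1% ± 0.753 (SD, n = 3 each). The 2-sided exact permutation test gave p = 0.1, the smallest value that 3 libraries against 3 allow.

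For the summed share of the very top of this set no difference was detected, although single features in it were called in both directions. The largest changes called among its first 10 were Zm00001d048817 (log2 fold change 0.94, edgeR adjusted p = 2.24e-07) and Zm00001d045937 (−0.30, edgeR adjusted p = 5.28e-05). Together the 10 most abundant features held 27.8% ± 0.713 of the counts in mutant JA-treated and 27.6% ± 0.679 in wild type JA-untreated libraries (SD, n = 3 each; 2-sided exact permutation test, p = 0.8). Of the 50 features 25 were called higher and 8 lower, where 5.25% and 4.94% of all features tested were. Of the nuclear genes at 1000 CPM or more 46% were higher and 17.5% lower, so the counts describe abundant transcripts as a class. The median log2 fold change of the 50 was 0.32, against 0.01 over all features tested. The range ran from −0.77 to 2.05. Under the other scalings, filters and sets of libraries 20 to 32 of the 50 were called higher and 7 to 14 lower. At least 1 on the log2 scale was reached by 9 of those that rose and by 0 of those that fell. Over all features tested, 2.01% were called higher and 2.09% lower at that size.

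The 50 features are not independent measurements. Of the 9, 7 have identifiers that begin with Zm00001d0488, a group singled out after its values were seen. The 50 held 15 features of this group, of which 13 were called higher and 0 lower, with a median log2 fold change of 0.94. The other 35 divided into 12 higher and 8 lower, with a median of 0.27. Beside both parts stand the shares over all features tested, 5.25% higher and 4.94% lower. A pair of neighbouring identifiers within the group differed by 0.0456% of their counts over the JA experiment, and another pair of neighbours among the 50 by 0.00812%. How reads shared by such pairs were counted is not known.

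The other groups placed this share on both sides. In the titled mutant JA-untreated libraries the same 50 features held 46.0% to 47.1% of the counts, above wild type JA-untreated, and in the titled wild type JA-treated libraries 35.6% to 39.4%, below it. In the genotype experiment they held 33.8% to 34.9% in the mutant and 35.4% to 36.8% in wild type, so that there the mutant libraries lay below wild type. Mutant JA-treated libraries were therefore above wild type JA-untreated ones, as were those titled mutant JA-untreated, whose labels conflict. In the genotype experiment the mutant without hormone was below its wild type. Within the JA experiment the place of the untreated mutant depends on which label is right. By title it lay above wild type JA-untreated, at 46.0% to 47.1%. By file name it would be the group at 35.6% to 39.4%, below wild type JA-untreated. Whether the experiments differ was not tested. The ENSRNA features, which are listed without names, took 2.78% ± 0.715 of the counts in mutant JA-treated and 2.44% ± 1.25 in wild type JA-untreated libraries (SD, n = 3 each; 2-sided exact permutation test, p = 0.7).

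**Figure D2:**
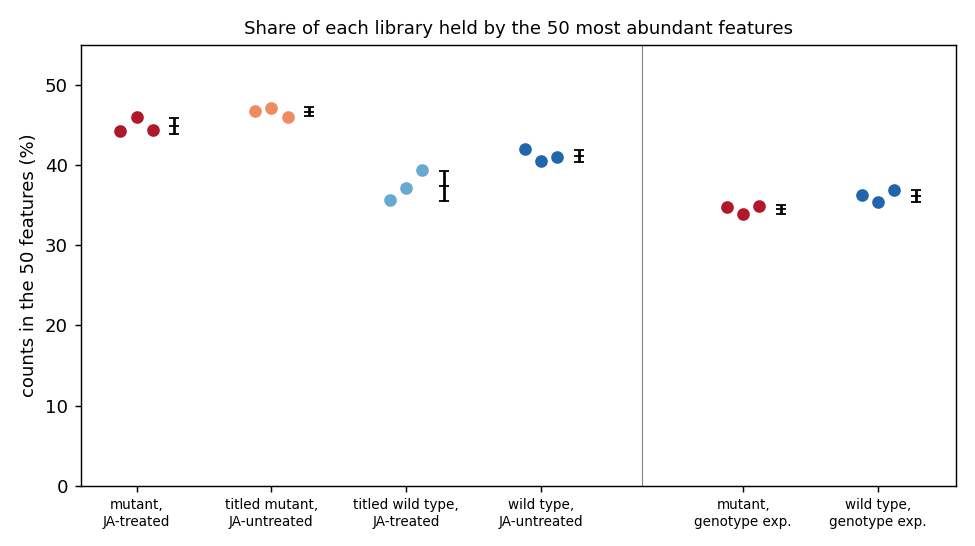
Percent of each library's counts held by the 50 features of highest mean CPM in the JA experiment; points are libraries, and the black marks beside them are the mean and SD of 3. The mutant JA-treated libraries lie at 44.2% to 46.0% and the wild type JA-untreated ones at 40.5% to 42.0%; the 2 groups on the right are the genotype experiment.

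For nuclear genes, the 2 identifiers with the largest rise and the 2 with the largest fall are given, among those called with at least 10 CPM in a group and with groups that did not overlap. By that rule 564 nuclear genes were higher and 544 lower. Of all features tested, 14.4% had groups without overlap on the higher side and 14.7% on the lower. The files hold no name for these 4, and no role is given to them. All 4 were near the limit of detection in 1 of the groups.

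Zm00001d006669 had 15.0, 11.4 and 17.3 CPM in the mutant JA-treated libraries, against 0.996, 0.564 and 0 CPM in the wild type JA-untreated ones. The groups were far apart, on 35 counts against 3, which is a ratio of 26.7 (exact 95% interval for counting error alone, 8.41 to 136; edgeR adjusted p = 0.000258). It was intermediate in the titled groups, at 5.97 ± 3.62 CPM in titled mutant JA-untreated and 3.38 ± 1.64 CPM in titled wild type JA-treated libraries (SD, n = 3 each). In the genotype experiment it was at 1.34 ± 0.915 CPM in the mutant and 1.47 ± 0.894 CPM in wild type, levels too low to be tested.

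Zm00001d034107 had 19.9, 20.3 and 17.3 CPM in the mutant JA-treated libraries, against 1.49, 1.13 and 0 CPM in the wild type JA-untreated ones (log2 fold change 4.25 ± 0.51 SE, edgeR adjusted p = 7.70e-05). It stood at 7.37 ± 2.24 CPM in titled mutant JA-untreated libraries but at 0.253 ± 0.438 CPM in titled wild type JA-treated ones (SD, n = 3 each). Against titled wild type JA-treated it had 46 counts and that group 1, which is a 61.0 times higher level per library total (exact 95% interval for counting error alone, 10.4 to 2461; edgeR adjusted p = 0.000245), but it did not pass the test against titled mutant JA-untreated (1.37 ± 0.39, edgeR adjusted p = 0.0823). This gene had 0 counts in all 6 libraries of the genotype experiment, which allows up to 0.284 CPM in the mutant and 0.217 CPM in wild type.

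Zm00001d016674 had 0, 1.27 and 3.70 CPM in the mutant JA-treated libraries, against 35.8, 26.5 and 30.4 CPM in the wild type JA-untreated ones (log2 fold change −4.14 ± 0.59 SE, edgeR adjusted p = 0.000326). The titled mutant JA-untreated and titled wild type JA-treated groups lay between, at 8.90 ± 6.28 and 6.26 ± 2.51 CPM (SD, n = 3 each). In the genotype experiment it was at 5.52 ± 2.2 CPM in the mutant and 5.98 ± 1.13 CPM in wild type, with a log2 fold change of −0.11 ± 0.28 SE (edgeR adjusted p = 0.892).

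Zm00001d042140 had 2.49, 0 and 3.70 CPM in the mutant JA-treated libraries, against 17.4, 13.5 and 18.7 CPM in the wild type JA-untreated ones (log2 fold change −2.93 ± 0.59 SE, edgeR adjusted p = 0.00473). It was at 8.81 ± 4.44 CPM in titled mutant JA-untreated and at 0.893 ± 0.794 CPM in titled wild type JA-treated libraries (SD, n = 3 each). In the genotype experiment it averaged 2.01 ± 0.941 CPM in the mutant and 2.83 ± 0.849 CPM in wild type, and did not pass the test (edgeR adjusted p = 0.616). Each of these 4 genes kept its call under all the alternative settings in which it was tested, but the sizes moved. Without mutant JA-treated replicate 3 the log2 fold change of Zm00001d016674 was −5.42 and that of Zm00001d042140 was −3.62. Without wild type JA-untreated replicate 1 the fitted value of Zm00001d006669, which depends on 3 counts, was 5.20 in place of 4.50.

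Mutant JA-treated endosperm was next set against the titled groups within the same fit, to see whether it differs from them too. These contrasts reuse the mutant JA-treated libraries and are not independent of the one above. Against titled mutant JA-untreated 139 features were higher and 189 lower, which is 1.23% and 1.68% of the features tested and 2.91% together. Against titled wild type JA-treated 232 were higher and 181 lower, which is 2.06% and 1.61%, and 3.67% together. Both shares are below the 10.2% called against wild type JA-untreated. The wild type JA-untreated libraries were deeper, at 1660718 to 1917363 counts, than those of the titled groups, at 839322 to 1353622. Only the contrast with wild type JA-untreated was refitted after thinning, and the part of depth in these shares was not tested. Among the 50 most abundant features 12 were higher and 11 lower against titled mutant JA-untreated, with a median log2 fold change of 0.03, and 22 were higher and 7 lower against titled wild type JA-treated, with a median of 0.60. The count of 328 calls against titled mutant JA-untreated was 180 to 216 when any 1 of its 6 libraries was left out. The count of 413 against titled wild type JA-treated was 247 without titled wild type JA-treated replicate 2, and 242 and 269 without mutant JA-treated replicates 2 and 3. ENSRNA features took 3.33% to 10.7% of the counts in the titled wild type JA-treated libraries, above the 2.02% to 3.44% in mutant JA-treated ones in 2 of 3 libraries, and 16 of them were called lower in this contrast. The part of this in the calls was not tested.

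The genotype experiment, in which no hormone was given, shares no library with the JA experiment, so the same nuclear genes can be compared between them. In that experiment 576 features were higher and 528 lower in the mutant, which is 3.23% and 2.96% of the features tested, and 6.19% together. Of 10704 nuclear genes tested in both experiments, 443 were called higher in the mutant of the genotype experiment. Of these, 87 were also called higher in mutant JA-treated endosperm, which is 19.6% of them, against 4.94% of all the genes tested in both. The 87 make up 16.4% of the 529 genes called higher in mutant JA-treated endosperm.

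Of the 418 genes called lower in the mutant of the genotype experiment, 75 were called lower in mutant JA-treated endosperm, which is 17.9%, against 4.98% of all the genes tested in both. They make up 14.1% of the 533 genes called lower there. Opposite calls were fewer, with 16 genes higher in the mutant of the genotype experiment but lower in the mutant with JA relative to wild type without it, and 19 the other way. The median log2 fold change in mutant JA-treated endosperm was 0.18 for the 443 genes and −0.25 for the 418. Without wild type JA-untreated replicate 1 the number called higher in both experiments was 57 in place of 87, and without mutant JA-treated replicate 2 the number lower in both was 50 in place of 75.

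**Figure D3:**
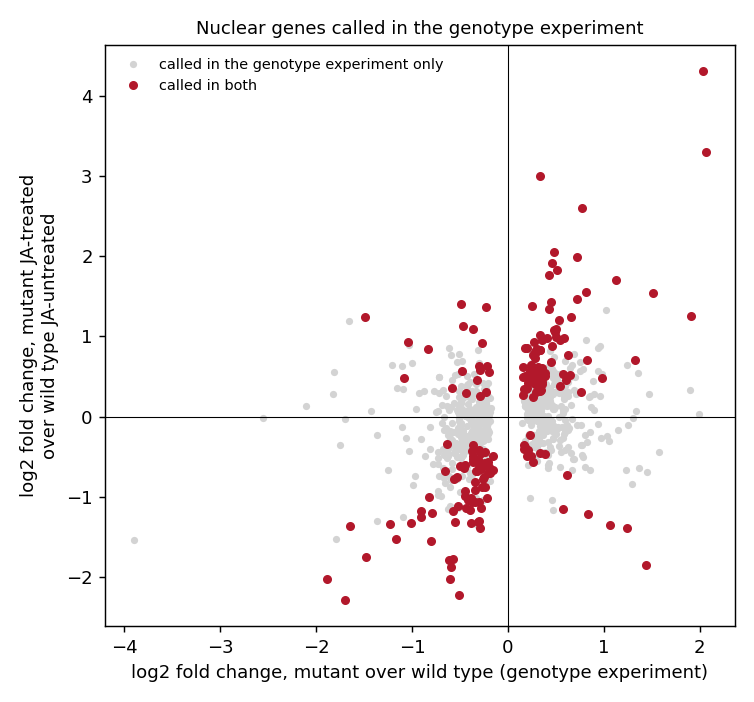
Log2 fold change of the nuclear genes called in the genotype experiment, with mutant over wild type on the x axis and mutant JA-treated over wild type JA-untreated on the y axis; red points are genes called in both experiments. Most red points lie in the quadrants of equal sign, with 87 genes higher and 75 lower in both, and 35 have opposite signs.

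The calls were also viewed by the first digits of the gene identifiers, in 55 classes with at least 20 tested genes. The class of identifiers that begin with Zm00001d042 had the largest share of calls in mutant JA-treated against wild type JA-untreated endosperm. There 19 genes were higher and 26 lower of 238, which is 18.9%, against a median of 9.72% over the classes. The same class was called for 17.9% in the genotype experiment, where the median over classes was 5.46%. It was also the highest class against titled mutant JA-untreated, at 10.5%, but stood at 3.78% against titled wild type JA-treated, near the median of 3.32%.

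By share of calls, the neighbouring classes of Zm00001d040, Zm00001d041 and Zm00001d043 ranked 1, 2 and 4 in the genotype experiment. In mutant JA-treated against wild type JA-untreated endosperm they ranked 36, 10 and 3. Identifiers that begin with Zm00001d043 were called for 15.2% in mutant JA-treated against wild type JA-untreated endosperm and for 11.2% in the genotype experiment. Identifiers that begin with Zm00001d040 were called for 18.4% in the genotype experiment but for 8.70% in mutant JA-treated against wild type JA-untreated endosperm. Those that begin with Zm00001d041 were called for 18.3% and 13.2%. The chromosome positions behind these identifiers were not used here. Outside the classes of Zm00001d040, Zm00001d041 and Zm00001d042, 141 of 10162 genes tested in both experiments were called in the same direction in both, which is 1.39%. Inside them the count was 21 of 542, which is 3.87%. Genes higher in the mutant of the genotype experiment but lower in mutant JA-treated endosperm numbered 5 inside and 11 outside. The other way it was 6 inside and 13 outside. Of genes called in mutant JA-treated against wild type JA-untreated endosperm, 51.9% inside and 63.2% outside had the same sign in the genotype experiment. Among all genes tested in both this held for 53.3% and 56.2%.

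Transcripts of the mitochondrial genome were higher in mutant JA-treated endosperm wherever the test made a call. The mitochondrial genome of plants encodes some subunits of the respiratory chain and of ATP synthase, proteins of its own ribosomes, factors for cytochrome c maturation, ribosomal RNAs, and many open reading frames. Of 175 protein-coding genes and open reading frames 26 passed the filter on low counts, and the other 149 had counts but too few to be tested. Of the 26, 10 were called higher by edgeR, against 5.25% of all features tested, and 0 lower. DESeq2 called 9 higher. At an unadjusted p under 0.05 in edgeR there were 16. All 26 log2 fold changes were positive, with a median of 0.94, against 0.01 over all features tested. The groups did not overlap for 13 of the 26, all on the higher side, against 14.4% of all features tested.

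A feature near the filter can pass it through the group in which it is high, so these counts describe the 26 alone. These features are not independent measurements. Of 208 mitochondrial features with counts, 55 had exactly the same count as another in each of 18 libraries, as did 115 of 157 plastid features. Among nuclear gene models with at least 10 counts this held for 230 of 24818. Of the called features, orf101-a and orf140-a differed by only 2.53% of their counts over the JA experiment. Reads shared between neighbouring organelle features, or with copies in the nuclear genome, were not resolved. The part of shared reads, and of polyadenylation of organelle RNA, in these differences was not tested.

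Of 7 features of the respiratory chain and ATP synthase tested, 4 rose, where 5.25% of all features tested did. For cox1, which encodes a catalytic part of cytochrome c oxidase, the mutant JA-treated libraries had 28.7, 54.4 and 44.4 CPM, against 10.5, 21.4 and 10.5 CPM in the wild type JA-untreated ones. The lowest mutant JA-treated library was above the highest wild type JA-untreated one, a separation that the rule for naming features required. The titled groups were close to each other, at 33.0 ± 9.42 CPM in titled mutant JA-untreated and 31.9 ± 2.12 CPM in titled wild type JA-treated libraries (SD, n = 3 each).

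For cox3, another subunit of the same enzyme, the mutant JA-treated libraries had 136, 109 and 102 CPM, against 35.8, 51.9 and 45.6 CPM in the wild type JA-untreated ones. The groups were well apart (log2 fold change 1.38 ± 0.15 SE, edgeR adjusted p = 4.26e-05). The level was also higher than in titled wild type JA-treated libraries (0.67 ± 0.15, edgeR adjusted p = 0.0246). It did not pass the test against titled mutant JA-untreated (0.19 ± 0.15, edgeR adjusted p = 0.614).

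For nad4, a subunit of complex I, the mutant JA-treated libraries had 103, 68.3 and 87.6 CPM, against 33.9, 38.9 and 39.1 CPM in the wild type JA-untreated ones. The wild type libraries were tightly grouped and lay below all mutant JA-treated ones, which the rule for naming features also required. For atp4, a subunit of ATP synthase, the mutant JA-treated libraries had 97.2, 84.8 and 111 CPM, against 41.8, 47.9 and 41.5 CPM in the wild type JA-untreated ones. Of the 3 that did not pass, cox2 had a log2 fold change of 0.98 ± 0.62 SE, atp1-a1 of 0.27 ± 0.67 and nad3 of 0.18 ± 0.45, and their groups overlapped. These 3, chosen after their values were seen, had 19 to 41 counts over the mutant JA-treated libraries.

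Among 6 mitochondrial ribosomal protein genes 1 was called higher, where 5.25% of all features tested were. For rps1 the mutant JA-treated libraries had 227, 215 and 241 CPM, against 91.6, 115 and 116 CPM in the wild type JA-untreated ones. The replicates of both groups were close together. Titled mutant JA-untreated libraries averaged 215 ± 36.4 CPM and titled wild type JA-treated ones 164 ± 49.8 CPM (SD, n = 3 each), and rps1 passed the test against neither. The other 5 had log2 fold changes of 0.10 to 1.00. Of the 2 genes of cytochrome c maturation tested, ccmFC rose, at 9.97, 8.86 and 11.1 CPM in the mutant JA-treated libraries against 3.49, 4.51 and 5.26 CPM in the wild type JA-untreated ones (edgeR adjusted p = 0.0480). The other, ccmFN, had a log2 fold change of 0.66 ± 0.29 SE (edgeR adjusted p = 0.179).

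**Figure D4:**
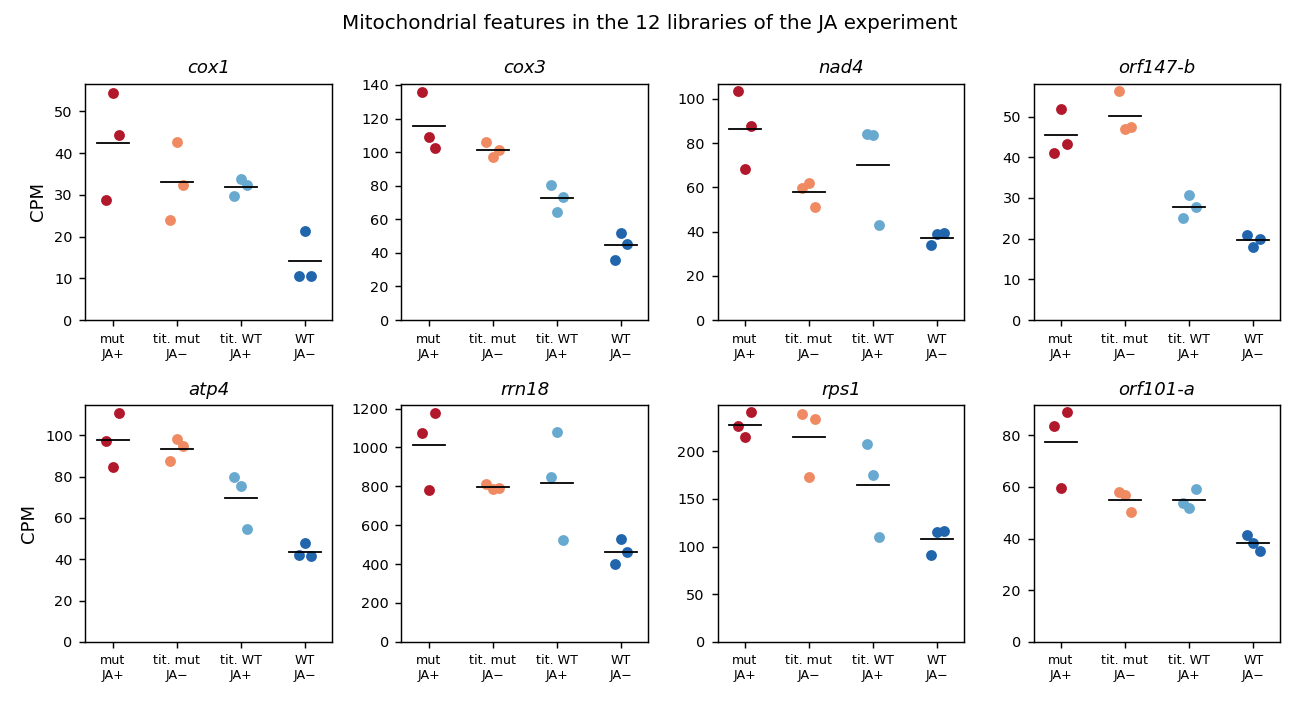
CPM of 8 mitochondrial features in the 12 libraries of the JA experiment, with mutant JA-treated (red), titled mutant JA-untreated (orange), titled wild type JA-treated (light blue) and wild type JA-untreated (dark blue) from left to right; points are libraries and lines are means. Higher calls without overlap were picked, so in each panel the 3 mutant JA-treated libraries lie above the 3 wild type JA-untreated ones. The titled groups mostly lie between or beside the mutant JA-treated ones.

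Of 10 open reading frames tested 4 were called higher, beside the same 5.25%. For orf147-b the mutant JA-treated libraries had 41.1, 51.9 and 43.2 CPM, against 20.9, 18.1 and 19.9 CPM in the wild type JA-untreated ones. This feature separated the titled groups as well: titled mutant JA-untreated libraries had 46.9 to 56.2 CPM and titled wild type JA-treated ones 25.1 to 30.8 CPM. Mutant JA-treated libraries were higher than titled wild type JA-treated ones (log2 fold change 0.71 ± 0.17 SE, edgeR adjusted p = 0.0332). They had a log2 fold change of −0.14 ± 0.16 SE against titled mutant JA-untreated (edgeR adjusted p = 0.768). The other 3 were orf101-a, orf140-a and orf99-d, at log2 fold changes of 1.01, 1.01 and 0.75 against wild type JA-untreated. Together, 2 of the 26 features, cox3 and orf147-b, passed the test against titled wild type JA-treated, and 0 passed it against titled mutant JA-untreated by edgeR, where 4 had an unadjusted p under 0.05.

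Of the 3 mitochondrial ribosomal RNAs tested, rrn18 and rrn26 were called higher and rrn5 was not. The small-subunit RNA rrn18 stood at 1073, 783 and 1177 CPM in the mutant JA-treated libraries, against 401, 527 and 460 CPM in the wild type JA-untreated ones. The large-subunit RNA rrn26 stood at 2184, 1687 and 2493 CPM in the mutant JA-treated libraries, against 1137, 1467 and 1145 CPM in the wild type JA-untreated ones (log2 fold change 0.76 ± 0.15 SE, edgeR adjusted p = 0.00394). For both, the groups did not overlap, beside 14.4% of all features tested on the higher side. The rule for naming features required this of rrn18. The third, rrn5, was at 8.32 ± 2.57 CPM in mutant JA-treated and 6.64 ± 1.65 CPM in wild type JA-untreated libraries (SD, n = 3 each), and its groups overlapped (log2 fold change 0.31 ± 0.43 SE, edgeR adjusted p = 0.718). Replicate 2 was the lowest of the mutant JA-treated libraries for rrn18, rrn26, nad4, atp4, rps1 and orf101-a, and the highest for cox1 and orf147-b.

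As a share of the library, mitochondrial protein-coding features held 0.131% to 0.224% of the counts in mutant JA-treated libraries, against 0.0912% to 0.122% in wild type JA-untreated ones (2-sided exact permutation test over 3 libraries against 3, p = 0.1, the smallest value possible). The titled mutant JA-untreated libraries held 0.146% to 0.153% and the titled wild type JA-treated ones 0.109% to 0.220%. In the genotype experiment the share was 0.0420% to 0.0738% in the mutant and 0.0467% to 0.0552% in wild type, and the ranges overlapped. There 0 of 23 mitochondrial protein-coding features passed the test in edgeR, where 5 had an unadjusted p under 0.05 and the median log2 fold change was 0.26. In the JA experiment the median was 0.51 without mutant JA-treated replicate 3, over the 38 features then tested, and 0.59 without wild type JA-untreated replicate 1, over 39, with 8 called higher in each. Positive estimates numbered 36 of 38 and 38 of 39 in these fits, 34 of 39 without wild type JA-untreated replicate 3 and 24 of 27 without mutant JA-treated replicate 1.

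Plastid genes were near the limit of detection. Of 114 plastid protein-coding features 2 passed the filter, 78 had too few counts and 34 had none in the 6 libraries. The 2 were ndhA and ndhD, subunits of the plastid NADH dehydrogenase-like complex, and both were called higher; they are named because of their small number, after their values were seen. They passed the filter through groups in which they are high, so that the filter favoured a higher call. Each had 9.97, 7.59 and 7.41 CPM in the mutant JA-treated libraries, against 1.99, 1.69 and 3.50 CPM in the wild type JA-untreated ones (edgeR adjusted p = 0.0220 for ndhA and 0.0201 for ndhD). Their counts were the same in all 6 libraries, 20 in all against 13, so that they count as a single measurement. None of the 43 plastid ribosomal or transfer RNAs was tested.

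**Figure D5:**
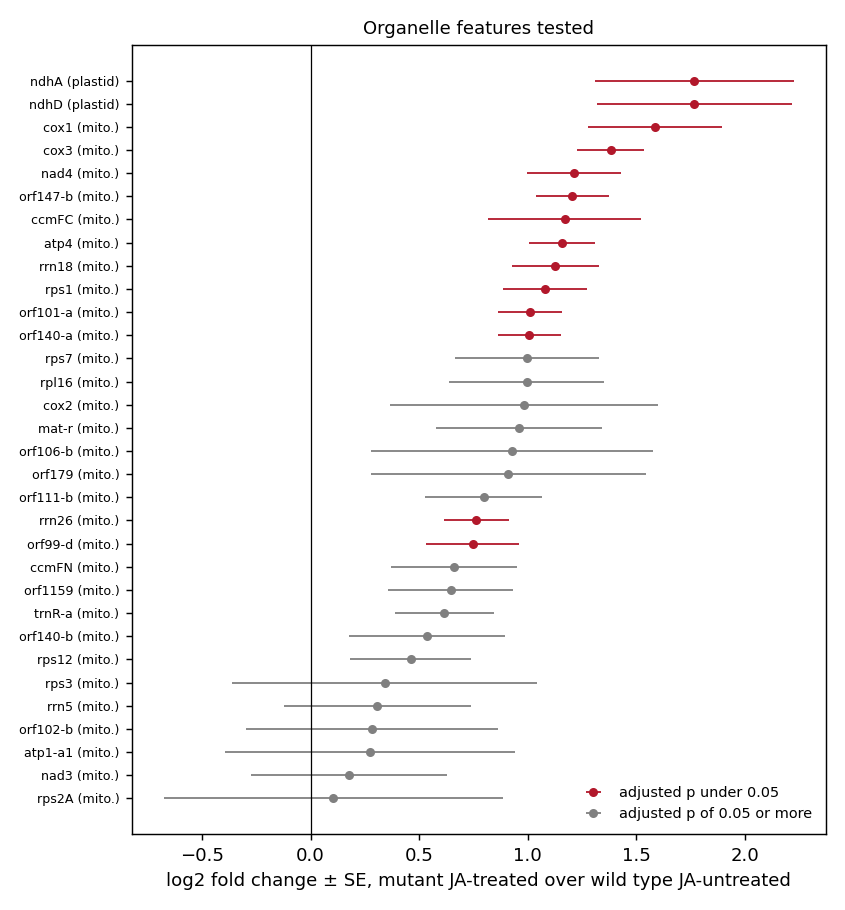
Log2 fold change of mutant JA-treated over wild type JA-untreated endosperm with its standard error for the 32 organelle features tested; red points passed an adjusted p of 0.05 and grey ones did not. All 32 estimates lie above 0, and 14 are red, 10 of them among the 26 mitochondrial protein-coding features.

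Small RNA genes gave little that could be tested. Of 154 microRNA precursors 120 had no count in the 6 libraries and 2 were tested. The precursor zma-MIR169f had 18.7, 13.9 and 13.6 CPM in the mutant JA-treated libraries, against 6.47, 9.59 and 10.5 CPM in the wild type JA-untreated ones, and did not pass the test (log2 fold change 0.80 ± 0.34 SE, edgeR adjusted p = 0.159). For zma-MIR396c the values were 15.0, 6.33 and 11.1 CPM in mutant JA-treated libraries, against 19.9, 10.7 and 6.43 CPM in wild type JA-untreated ones, with groups that overlapped (edgeR adjusted p = 0.814). A 3' end method counts the polyadenylated precursor and not the mature microRNA. Of 238 ENSRNA features tested 6 were higher and 2 lower, a share of 3.36%, against 10.2% of all features tested.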

How the data were processed

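Counts were used as the authors deposited them, as whole numbers for 46430 features in each library. The submitters' processing notes name Trimmomatic 0.39 and HISAT2 2.2.1. The sources used here do not state the counting program, build, annotation, strand setting or treatment of duplicates. Without strand, overlapping genes cannot be told apart. Names came from RefSeq (Zm-B73-REFERENCE-NAM-5.0; no coordinates were taken), which matched 365 of 365 organelle features, 153 of 154 microRNA precursors and 0 nuclear identifiers. The lists of storage, starch, jasmonate, defence and cell type genes therefore had no matched member and gave no result.

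Of the 24 libraries, 18 were analysed, and those with IAA were left out as another treatment. The JA experiment was fitted in edgeR 4.0.16 (R 4.3.3) as 12 libraries in 4 groups, and the genotype experiment by itself. TMM scaling, the filterByExpr low-count filter (minimum 10) and 2-sided quasi-likelihood tests were applied, and p-values were adjusted over all features tested. CPM levels are scaled within an experiment, so levels set across experiments are not on a common scale. A standard error is the size of the log2 fold change over the root of F. Limits for 0 counts use 3 counts over a group. Named nuclear genes were the 2 largest changes in each direction, and named organelle features the 8 largest rises, among calls with at least 10 CPM in a group and no overlap. Members and lists were chosen with earlier results of these data known. Over 18 pairs, replicates differed beyond sampling noise (chi-square over degrees of freedom, 1.76 to 6.44). The fits were tested on simulated data. Alternatives were DESeq2 1.42.0, other scalings, filters and sets of libraries, a replicate block, thinning to equal depth and leaving out each library.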

Additional observations from a re-analysis of the deposited data

How the results depend on the processing

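The count of 1147 features called in mutant JA-treated against wild type JA-untreated endosperm stayed within 1.5 times under all settings tried, at 802 to 870 with 1 library left out, 997 with DESeq2, 1400 with ENSRNA features left out, 1347 without the low-count filter and 898 after thinning to equal depth, a setting chosen after seeing the data. The higher calls ran from 390 (without wild type JA-untreated replicate 1, against 591) to 447 and the lower from 378 to 423 with 1 library left out. Without the low-count filter 542 were higher and 805 lower, so that the share of higher calls was 40.2% in place of 51.5%, and the cause was not tested. With library sizes that leave out the 50 most abundant features 463 were higher and 583 lower. The number of mitochondrial protein-coding features called higher was 8 to 10 with 1 library left out and 8 to 12 over all settings. The 12 features picked by the rule for the largest changes kept their call and direction under each of 13 to 15 alternatives in which they were tested. The other features named as called, ccmFC, orf99-d, orf140-a, rrn26, ndhA and ndhD, were not followed through these settings. In fits of the 6 libraries alone, 214 features were called against titled mutant JA-untreated in place of 328, and 224 against titled wild type JA-treated in place of 413, where fewer libraries estimate the spread. With 1 library left out these counts were 180 to 216 and 242 to 297. In the genotype experiment DESeq2 called 658 in place of 1104 (the cause was not tested), and 701 to 841 were called with 1 library left out, the lowest without mutant replicate 2 (701) and wild type replicate 1 (702). Replicate numbers did not pair the samples: same-numbered libraries of the JA experiment correlated at −0.087 to 0.10 in their deviations from the group means. With the replicate number as a block, 1030 features were called in place of 1147, 247 in place of 328, 337 in place of 413 and, in the genotype experiment, 949 in place of 1104. Depth limits the organelle results: 149 of 175 mitochondrial and 112 of 114 plastid protein-coding features had too few counts to be tested.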
